A study of Symphysodon aequifasciata with 2 samples.

Results

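Splicing factors and neuronal RNA-binding proteins were described in the brain transcriptome of the discus (Symphysodon aequifasciata), an ornamental cichlid fish. The members are the features of the deposited expression table whose protein match names a splicing factor, a heterogeneous or small nuclear ribonucleoprotein, an ELAV-like, CUGBP Elav-like, RNA binding protein fox, muscleblind or Nova protein. The rule reads protein names and no expression value, and it selected 147 of 40209 features. A feature is a transcript cluster of a de novo assembly, with a Trinity-style identifier and with its gene symbol and protein match taken from other species. The 147 features carry 92 gene symbols, and 11 of them have none.

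The study sequenced poly(A) RNA from the whole-tissue brain samples of 1 fish of each sex, both aged 1 year and both killed with the anaesthetic MS-222, with 1 library per fish. The library titled Tbrain is labelled female and the library titled Obrain is labelled male. The initials T and O are not explained in the labels, so the libraries are called by their titles here, and the direction of every ratio is tied to the title. With 1 library per group there is no replicate and no test. Differences between the libraries may therefore belong to sex, to the single fish or to its preparation, which cannot be told apart.

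Introns are removed from nuclear transcripts by the spliceosome, which is assembled from small nuclear ribonucleoproteins (snRNPs) and many further splicing factors. SR proteins mostly favour the use of nearby splice sites, whereas heterogeneous nuclear ribonucleoproteins (hnRNPs) often repress them. In vertebrate neurons, tissue-specific regulators of the ELAV-like, CELF, RBFOX, muscleblind and Nova families are laid over this general machinery and shape alternative splicing, the stability of messenger RNA and its translation. ELAV-like proteins 2 to 4 are long-used markers of neurons, and RBFOX3 is the antigen known as NeuN.

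Values are TPM, a relative abundance per transcript length that sums to a fixed total over a whole library. The listed features sum to 943014 TPM in Tbrain and 937828 TPM in Obrain, and the higher of a feature's 2 values is never under 6.01 TPM. A feature with 1 value under 6.01 TPM is thus listed only through its other library, which fixes the direction of its ratio. Among the members named below this holds for the 789-base celf4, 320-base celf1, SF1 and muscleblind-like protein 3 features. From the steps between TPM values the listed features were estimated to hold about 24700000 reads in Tbrain and 26800000 reads in Obrain. The members held a median of 1085 reads in Tbrain and 1272 reads in Obrain, against medians of 51 and 61 reads over all features. The ratio of a feature is log2((Tbrain TPM + 0.5) / (Obrain TPM + 0.5)), which understates the change of low features. A positive ratio means a higher level in Tbrain, and a feature is called apart when the difference is at least 2-fold. Beside it stands the plain ratio of Tbrain TPM over Obrain TPM with its exact (Clopper-Pearson) 95% interval, which covers counting error only and not the spread between fish.

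Nearly all members lay close to equality. Of the 147, none was at least 2-fold higher in Tbrain and 4 were at least 2-fold higher in Obrain, while 143 lay within 2-fold. Of the whole table, 5.02% reached 2-fold towards Tbrain and 10.1% towards Obrain. The 4 members apart were a feature of ELAVL3, features matched to CELF family members 1 and 4, and a feature of 277 bases matched to hnRNP C. At a threshold of 1.5-fold the counts were 0 towards Tbrain and 9 towards Obrain, against 11.9% and 20.5% of all features.

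Short features varied more than long ones, and the members are long, with a median length of 1429 bases against 408 bases over all features. Under 500 bases, none of 15 members was at least 2-fold higher in Tbrain and 2 were in Obrain, where the shares of all features of that length were 8.15% and 16.2%. From 500 bases upwards the counts were 0 and 2 of 132 members, against 0.747% and 1.91% of all such features. Among features of at least 1000 bases, none of 104 members was at least 2-fold higher in Tbrain and 1, ELAVL3, was at least 2-fold higher in Obrain. Over all 10726 features of that length the shares were 0.373% and 1.01%, and 1 of 104 is 0.962%. After centring on the median of all features ELAVL3 had a log2 ratio of -0.94, so that no member of at least 1000 bases was past 2-fold. At 1.5-fold the long members numbered 0 and 5, and the shares of all long features were 1.86% and 5.5%. The counting interval lay above 1 for 25 and below 1 for 44 of these 104 members, or 24.0% and 42.3%. Among all features of at least 1000 bases the same shares were 23.8% and 38.5%. The standard deviation of the log2 ratio over features was 0.26 for the long members and 0.34 for all long features, and over all features under 500 bases it was 0.97.

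**Figure D1:**
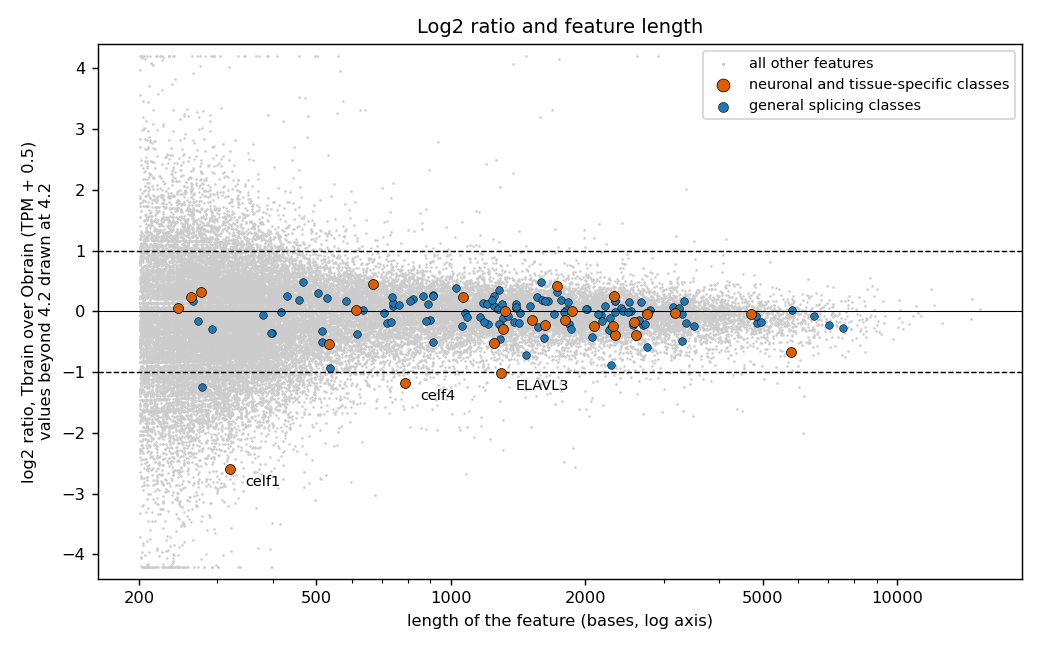
Log2 ratio of Tbrain over Obrain (vertical axis, on TPM + 0.5) against feature length in bases (horizontal log axis), with each member as a large point and the other features as small grey points; dashed lines mark 2-fold. The spread of all features narrows with length, no member reaches 2-fold towards Tbrain, and ELAVL3 at 1294 bases is the only member of at least 1000 bases past 2-fold towards Obrain, by a log2 ratio of -1.01.

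The median log2 ratio of the members was -0.03, with a 95% interval from order statistics of -0.10 to 0.01, and that of all features was -0.07. Above 0 lay 65 members and below it 82, or 84 and 63 after centring on the median of all features. The share below 0 was 55.8% of members and 56.2% of all features. Members are longer, and the median of all features includes 23210 features under 500 bases, with a median of -0.14. From 500 bases upwards the medians were -0.034 for members and -0.040 for all features, and from 1000 bases -0.049 and -0.051. By class, the medians were -0.23 for 5 ELAV-like features, -0.21 for 10 CELF, 0.02 for 5 RBFOX, -0.10 for 6 muscleblind and -0.53 for 2 Nova features. Among the general classes they were -0.03 for 27 hnRNP, 0.04 for 25 SR protein, 0.04 for 24 snRNP, -0.01 for 12 SF3A and SF3B, -0.15 for 5 U2AF and -0.07 for 26 other splicing factor features. Together the 28 features of the 5 neuronal and tissue-specific classes had a median of -0.15 (interval -0.28 to 0.00), with 10 above and 18 below 0. The 119 features of the 6 general classes had a median of -0.02 (interval -0.07 to 0.04), with 55 above and 64 below 0. Centring on the median of all features left 15 of the 28 and 48 of the 119 below 0. Restricted to at least 1000 bases, the median was -0.16 over 20 features of the neuronal and tissue-specific classes (interval -0.28 to -0.03). Over 84 features of the general classes it was -0.02 (interval -0.10 to 0.02). The intervals of the 2 sets overlap in both cases. These intervals describe the features of the 2 libraries and are no test. They count features that share a symbol as separate and do not cover the spread between fish.

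**Figure D2:**
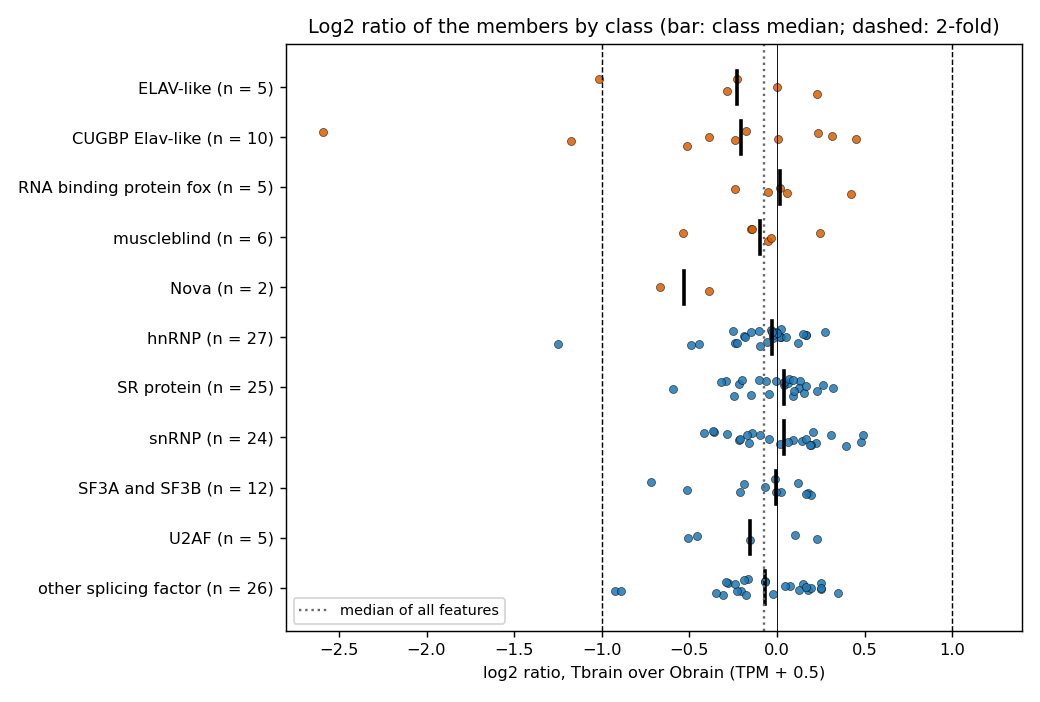
Log2 ratio of Tbrain over Obrain (horizontal axis, on TPM + 0.5) for each member, by class; bars are class medians, the dotted line is the median of all features and dashed lines mark 2-fold. Of the class medians only that of the 2 Nova features, at -0.53, lies beyond -0.25. The ELAV-like and CUGBP Elav-like classes hold 3 of the 4 points past 2-fold, and the lowest, celf1, rests on 4 reads in Tbrain. Past 2-fold towards Obrain lie 10.7% of the 28 neuronal and tissue-specific features, beside 10.1% of the whole table. From 500 bases upwards these shares are 8.33% of 24 features and 1.91%.

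ELAV-like proteins bind AU-rich stretches of messenger RNA. ELAVL3 measured 25.9 TPM in Tbrain and 52.7 TPM in Obrain, on a feature of 1294 bases. Its log2 ratio was -1.01 and its plain ratio 0.49 (0.46 to 0.53), from about 1014 and 2241 reads. Of the 10726 features of at least 1000 bases, 105 had a ratio as low or lower. The other neuronal members of the family did not share this size of difference. The gene elavl2 measured 20.4 TPM in Tbrain and 24.0 TPM in Obrain (log2 ratio -0.23), and elavl4 measured 31.5 TPM in Tbrain and 26.8 TPM in Obrain (log2 ratio 0.23). ELAVL1, the member of the family that is expressed in most tissues, was the most abundant and the closest to equal, at 89.97 TPM in Tbrain and 89.95 TPM in Obrain. A second ELAVL1 feature, of 1308 bases, measured 10.2 TPM in Tbrain and 12.5 TPM in Obrain.

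The ELAVL3 difference can be set beside another feature of the same symbol. That feature, of 2522 bases, has the protein match HUC, an older name of ELAVL3, and is therefore not selected by the rule. It measured 6.64 TPM in Tbrain and 9.61 TPM in Obrain, a log2 ratio of -0.50 and a plain ratio of 0.69 (0.62 to 0.77). Both features were thus lower in Tbrain, by different amounts. The HUC feature shares the identifier stem TRINITY_DN11746_c0 with the NOVA1 feature of 5779 bases, and whether their values are independent was not tested. The member features of elavl2 and ELAVL3 share the identifier stem TRINITY_DN12080_c2, and reads of such close relatives can be split between them by the quantification. The 3 members elavl2, ELAVL3 and elavl4 summed to 77.7 TPM in Tbrain and 103.5 TPM in Obrain, a log2 ratio of -0.41. Of these, elavl4 has another stem, TRINITY_DN12080_c0, and a ratio of the opposite sign. The 2 features with the symbol elavl3, the member and the HUC match, summed to 32.51 TPM in Tbrain and 62.35 TPM in Obrain (-0.93).

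Each cell type marker is given by its feature with the highest mean TPM, and other features of the same symbol are left out. Of 13 other neuron markers 10 were measured. Their median log2 ratio was -0.08, with 4 above and 6 below 0 and all 10 within 2-fold, between -0.46 and 0.26. They summed to 3733 TPM in Tbrain and 3321 TPM in Obrain. Most of this came from the synaptic gene snap25a, at 2642 TPM in Tbrain and 2201 TPM in Obrain. The direction of the sum rests on that gene. In bulk tissue fewer cells of a type and less RNA per cell cannot be told apart. The part of neuron content in the ELAVL3 difference was not tested. Markers of the other cell types had medians of 0.05 for 7 radial glia and astrocyte, 0.35 for 4 oligodendrocyte, -0.20 for 5 microglia and macrophage, 0.14 for 5 endothelial and 0.34 for 2 red blood cell genes measured. Of these only the macrophage gene mpeg1 was past 2-fold, at 7.22 TPM in Tbrain and 2.10 TPM in Obrain. Its feature of 470 bases held 56 reads in Tbrain and 18 reads in Obrain. Of the 5 microglia and macrophage genes 2 lay above and 3 below 0.

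CELF proteins bind GU-rich sequences and act both on splicing in the nucleus and on messenger RNA in the cytoplasm. The 10 CELF features held the widest range of any class, from -2.59 to 0.45 on the log2 ratio scale. The lowest was a feature of 320 bases for celf1, at 1.55 TPM in Tbrain and 11.8 TPM in Obrain. It rests on 4 reads in Tbrain and 34 reads in Obrain, with a plain ratio of 0.13 (0.034 to 0.37). Another feature with the symbol CELF1, of 669 bases, pointed the other way, at 38.4 TPM in Tbrain and 28 TPM in Obrain (log2 ratio 0.45). Its protein match names family member 2 and not 1, so its identity within the family is uncertain.

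The gene celf4, whose product is found mainly in the nervous system in mammals, was lower in Tbrain on both of its features. On 2335 bases it measured 8.55 TPM in Tbrain and 11.3 TPM in Obrain, a log2 ratio of -0.39 and a plain ratio of 0.76 (0.68 to 0.83). On 789 bases it measured 3.61 TPM in Tbrain and 8.79 TPM in Obrain, a log2 ratio of -1.18, from 72 and 191 reads. With a Tbrain value under 6.01 TPM this shorter feature is listed only through Obrain, so its direction adds no support to the longer one. CELF5 measured 6.99 TPM in Tbrain and 8.33 TPM in Obrain, and CELF2 on 1249 bases measured 8.87 TPM in Tbrain and 12.9 TPM in Obrain (log2 ratio -0.51). For celf3, the most abundant of the family on long features, the values were 30.3 TPM in Tbrain and 34.3 TPM in Obrain on 2580 bases. A second celf3 feature was equal within counting error, at 21.7 TPM in Tbrain and 21.6 TPM in Obrain. The remaining CELF features, both matched to family member 2 and under 300 bases long, had log2 ratios of 0.23 and 0.31 with counting intervals that include 1.

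RBFOX proteins recognise the sequence UGCAUG in introns. All of the RBFOX features with a symbol carry rbfox1, whereas their protein matches name homologs 2 and 3, so the paralog is uncertain. The feature with the largest ratio, matched to homolog 2 on 1729 bases, measured 28.3 TPM in Tbrain and 21.0 TPM in Obrain (log2 ratio 0.42, plain ratio 1.35, 1.25 to 1.45). A second one matched to homolog 2, on 2309 bases, measured 15.2 TPM in Tbrain and 18.01 TPM in Obrain. The third, on 612 bases, measured 28.1 TPM in Tbrain and 27.8 TPM in Obrain. The longest feature matched to homolog 3 (4704 bases), the NeuN antigen of mammals, measured 13.2 TPM in Tbrain and 13.7 TPM in Obrain, with a counting interval that includes 1. A fragment of 245 bases with the same match measured 13.75 TPM in Tbrain and 13.2 TPM in Obrain.

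Muscleblind proteins bind YGCY motifs and promote the adult pattern of splicing in mammals. Of their 6 features 5 lay below 0, and 3 did after centring on the median of all features. The 2 features of MBNL1 measured 16.3 and 8.42 TPM in Tbrain and 16.9 and 9.38 TPM in Obrain, and a feature without a symbol matched to the same protein measured 6.06 TPM in Tbrain and 6.75 TPM in Obrain. Of the features of mbnl2a, one measured 21.0 TPM in Tbrain and 17.6 TPM in Obrain (log2 ratio 0.25) and the other 12.01 TPM in Tbrain and 12.3 TPM in Obrain. The muscleblind-like protein 3 match, on 533 bases, measured 4.23 TPM in Tbrain and 6.37 TPM in Obrain, from 43 and 71 reads (log2 ratio -0.54).

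Nova proteins, which bind YCAY clusters and regulate splicing of synaptic transcripts in the mouse, were the class with the lowest median. NOVA1 on 5779 bases measured 9.22 TPM in Tbrain and 14.95 TPM in Obrain. Its log2 ratio was -0.67 and its plain ratio 0.62 (0.58 to 0.65), from 1938 and 3396 reads. NOVA1 on 2607 bases measured 9.18 TPM in Tbrain and 12.2 TPM in Obrain, a log2 ratio of -0.39 and a plain ratio of 0.75 (0.69 to 0.82). Both features match the same protein of the Nile tilapia, and whether they stem from 1 gene or 2 was not tested.

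**Figure D3:**
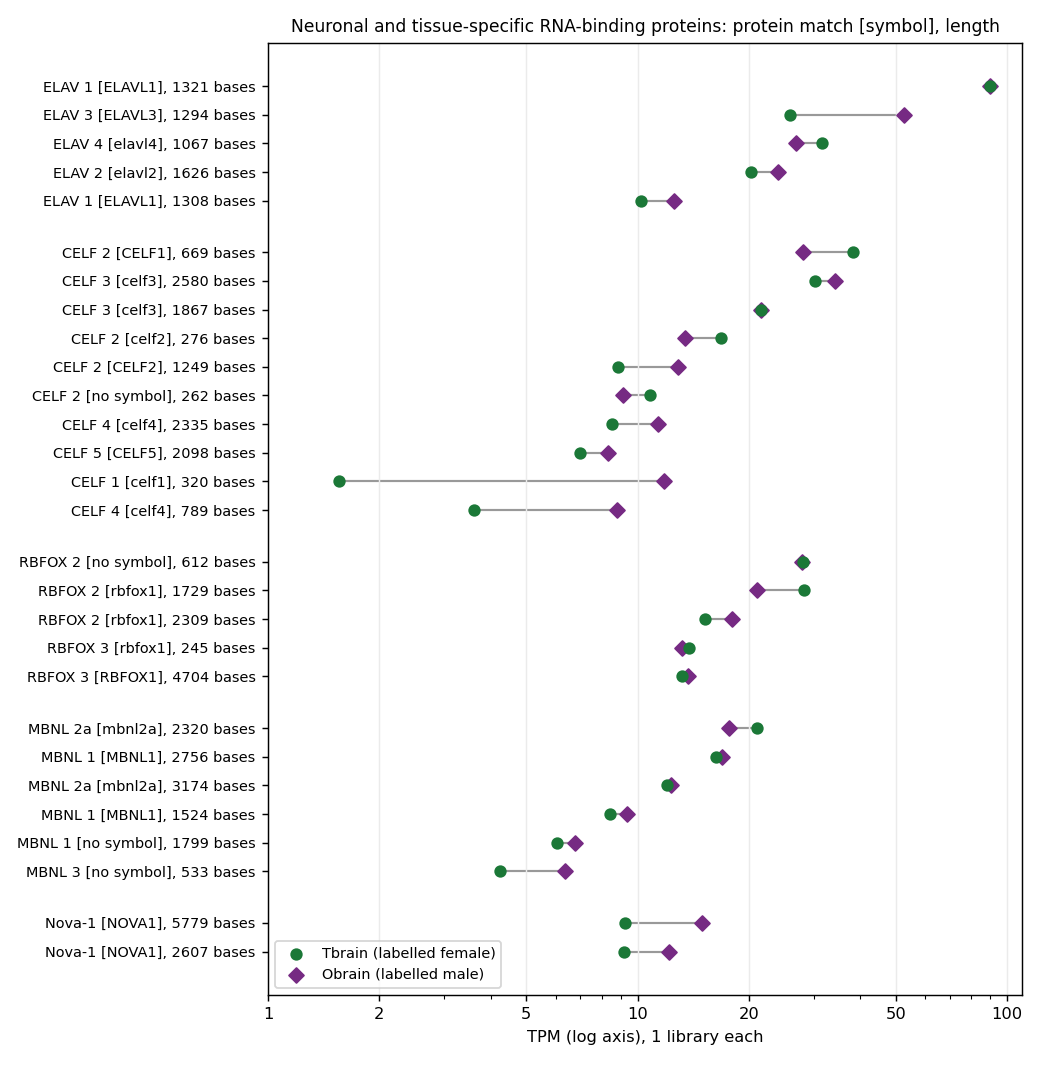
TPM (horizontal log axis) in Tbrain (circles) and Obrain (diamonds), 1 library each, for the 28 neuronal and tissue-specific features, ordered by mean within each class. ELAVL3, both celf4 features, the 320-base celf1 feature and both NOVA1 features lie lower in Tbrain, while elavl4, the 669-base CELF1 feature and a 1729-base RBFOX2 match lie higher in Tbrain.

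The hnRNPs, which package nascent transcripts, had a median log2 ratio of -0.03 and ranged from -1.25 to 0.27. Of their features 10 lay above and 17 below 0, a split that became 16 and 11 after centring. The most abundant, Hnrnpa0, measured 169.8 TPM in Tbrain and 156.3 TPM in Obrain on 1399 bases, and 137.6 TPM in Tbrain and 135.7 TPM in Obrain on 636 bases. HNRNPM on 3327 bases measured 64.4 TPM in Tbrain and 57.3 TPM in Obrain (log2 ratio 0.17). The largest ratio in the same direction belonged to a feature of 911 bases matched to hnRNP C1/C2, at 9.30 TPM in Tbrain and 7.62 TPM in Obrain (0.27). On the other side, HNRNPLL, a relative of hnRNP L, measured 38.7 TPM in Tbrain and 54.6 TPM in Obrain on 3304 bases (log2 ratio -0.49). HNRNPK, a KH-domain protein, measured 68.1 TPM in Tbrain and 92.8 TPM in Obrain on 1619 bases (-0.44). Another feature of each symbol did not share the difference. HNRNPLL on 2530 bases measured 26.51 TPM in Tbrain and 26.49 TPM in Obrain. HNRNPK on 2511 bases measured 12.07 TPM in Tbrain and 10.84 TPM in Obrain (0.15). The hnRNP C feature past 2-fold, of 277 bases, measured 14.2 TPM in Tbrain and 34.3 TPM in Obrain, from 23 and 62 reads. Another hnRNP C feature, of 1385 bases and with the same identifier stem TRINITY_DN12271_c7, measured 28.4 TPM in Tbrain and 32.2 TPM in Obrain. On 1075 bases Hnrnpc measured 44.8 TPM in Tbrain and 45.5 TPM in Obrain. The difference of the short feature was thus not seen at the same size on the longer ones.

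SR proteins carry the only features above 400 TPM among the members. A feature of 271 bases for SRSF4 measured 677.5 TPM in Tbrain and 752.3 TPM in Obrain, and one of 379 bases for SRSF5 measured 488.1 TPM in Tbrain and 510.6 TPM in Obrain. Longer features of the same symbols were far lower in TPM, such as SRSF4 on 1403 bases, at 77.9 TPM in Tbrain and 74.6 TPM in Obrain. That feature held more reads, about 3377 in Tbrain and 3504 in Obrain, against 1032 and 1272 on 271 bases. In Tbrain 1 read was worth 0.656 TPM at 271 bases and 0.089 TPM at 560 bases. The gap in TPM thus depends on length, and abundance was not compared between these features. Among features of at least 500 bases SRSF2 led with 181.5 TPM in Tbrain and 165.4 TPM in Obrain, followed by SRSF5 on 1207 bases with 119.5 TPM in Tbrain and 109.6 TPM in Obrain. Towards Tbrain the largest ratios were those of SRSF6 on 1731 bases (37.9 TPM in Tbrain and 30.3 TPM in Obrain, log2 ratio 0.32) and SRSF11 on 1247 bases (57.7 TPM in Tbrain and 48.1 TPM in Obrain, 0.26). Towards Obrain stood another SRSF11 feature, of 2751 bases, at 23.6 TPM in Tbrain and 35.8 TPM in Obrain (-0.59). A feature of 514 bases matched to SRSF10 followed, at 17.5 TPM in Tbrain and 22.0 TPM in Obrain (-0.32).

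The snRNP class holds the protein parts of the spliceosomal particles, here split by particle after the values had been seen. The Sm proteins, which form the ring shared by most of these particles, had 5 of 6 features above 0 and a median log2 ratio of 0.21. SNRPD1 measured 173.4 TPM in Tbrain and 140.0 TPM in Obrain, SNRPG 153.4 TPM in Tbrain and 109.9 TPM in Obrain, and SNRPD3 76.5 TPM in Tbrain and 65.6 TPM in Obrain. SNRPF and SNRPN had log2 ratios of 0.20 each, where the symbol SNRPN stands on a match to proteins B and B'. The exception was snrpe, at 60.7 TPM in Tbrain and 78.2 TPM in Obrain (-0.36). The counting interval lay above 1 for 5 of the 6 and below 1 for snrpe, where the shares over all features were 17.3% and 26.3%. SNRPD2, another Sm protein gene, which the rule leaves out because its protein match bears another name, measured 76.8 TPM in Tbrain and 73.7 TPM in Obrain.

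The particle-specific proteins went both ways. The U1 protein gene snrnp70 measured 105.7 TPM in Tbrain and 141.2 TPM in Obrain on 2074 bases (log2 ratio -0.42), while SNRNP70 on 2428 bases measured 59.4 TPM in Tbrain and 58.8 TPM in Obrain. Of the U4/U6.U5 particle, PRPF4 had the largest ratio of all members towards Tbrain, at 10.25 TPM in Tbrain and 7.15 TPM in Obrain (0.49, plain ratio 1.43, 1.26 to 1.64). The helicase gene SNRNP200 measured 10.4 TPM in Tbrain and 12.2 TPM in Obrain (-0.22), and EFTUD2, its GTPase partner, 17.0 TPM in Tbrain and 16.3 TPM in Obrain. In the minor spliceosome, which removes a rare class of introns, Snrnp48 on 1026 bases measured 19.3 TPM in Tbrain and 14.6 TPM in Obrain (0.39). A second Snrnp48 feature, of 880 bases, measured 18.7 TPM in Tbrain and 21.0 TPM in Obrain (-0.16). SNRNP35 measured 6.58 TPM in Tbrain and 8.62 TPM in Obrain (-0.37). Of the 5 features of the minor particle 4 lay below 0, with a median log2 ratio of -0.16. Over all features 56.2% lay below 0.

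SF3A and SF3B proteins belong to the U2 particle and help to select the branch point. SF3B6, the subunit that contacts the branch point region, was the most abundant at 146.2 TPM in Tbrain and 241.4 TPM in Obrain. Its log2 ratio of -0.72 was the lowest of the class, with a plain ratio of 0.61 (0.59 to 0.62) from 6721 and 12025 reads. SF3B1, the scaffold of the complex, measured 73.5 TPM in Tbrain and 77.2 TPM in Obrain on its feature of 6532 bases. A fragment of 515 bases with the same symbol measured 92.3 TPM in Tbrain and 131.9 TPM in Obrain (-0.51). SF3A3 measured 19.0 TPM in Tbrain and 16.5 TPM in Obrain, and a feature of 582 bases matched to the same protein 55.4 TPM in Tbrain and 48.9 TPM in Obrain. Apart from SF3B6 and that fragment the class ranged from -0.21 to 0.19.

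U2AF recognises the 3′ splice site as a pair of a small and a large subunit. The small subunit gene U2AF1 measured 33.8 and 22.7 TPM in Tbrain and 28.8 and 21.1 TPM in Obrain on its 2 features. All 3 features of the large subunit gene U2AF2 lay below 0. They measured 29.99, 6.89 and 6.37 TPM in Tbrain and 33.4, 10 and 8.93 TPM in Obrain, with log2 ratios of -0.15, -0.51 and -0.46. Counting intervals lay below 1 for all 3 features of the large subunit and above 1 for the 737-base feature of the small one. That of the 766-base feature, 0.94 to 1.23, included 1. Among all features of at least 500 bases the interval lay below 1 for 34.3% and above 1 for 24.2%.

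Among the other splicing factors PUF60, a partner of U2AF, was the most abundant, at 165.4 TPM in Tbrain and 173.5 TPM in Obrain on 1346 bases and 140.2 TPM in Tbrain and 126.3 TPM in Obrain on 1835 bases. Isy1 and bcas2, which act in the catalytic spliceosome, had the largest ratios towards Tbrain among features of at least 500 bases. Isy1 measured 24.9 TPM in Tbrain and 19.4 TPM in Obrain (0.35), and bcas2 measured 18.03 TPM in Tbrain and 15.1 TPM in Obrain (0.25). Just inside the 2-fold threshold on the other side were features of Sfswap and SF1. Sfswap on 535 bases measured 14.6 TPM in Tbrain and 28.2 TPM in Obrain (-0.93), against 15.1 TPM in Tbrain and 17.3 TPM in Obrain on 3359 bases (-0.19). SF1, the branch point binding protein, measured 3.32 TPM in Tbrain and 6.58 TPM in Obrain (-0.89). A second SF1 feature, of 2850 bases and outside the rule because its match is named by symbol alone, measured 35.7 TPM in Tbrain and 36.8 TPM in Obrain (-0.04). PRPF8, the core protein of the catalytic centre, measured 16.7 TPM in Tbrain and 20.4 TPM in Obrain.

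From 500 bases upwards the median ratio was lower in longer features, among members and over the whole table. For members from 500 to under 1000 bases the median log2 ratio was 0.06 (28 features), from there to under 2000 bases -0.01 (53), to under 3000 bases -0.05 (34), to under 5000 bases -0.06 (12) and for 5000 bases or more -0.22 (5). Over all features the medians in the same ranges were -0.01, -0.02, -0.06, -0.09 and -0.13, so they stayed below 0 throughout. Features under 500 bases did not continue this order, with medians of -0.01 over 15 members and -0.14 over all 23210 features of that length. The Sm features are 397 to 823 bases long, whereas PRPF8, SNRNP200 and the lower of the NOVA1 features are longer than 5000 bases. So are Hnrnpul1 (log2 ratio 0.02) and the longer SF3B1 feature (-0.07), which lay near equality. The part of length in these differences was not tested.

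Several features of one symbol showed how far such values hold within a symbol. Among 35 symbols with at least 2 member features, covering 79 features, the span of log2 ratios within a symbol had a median of 0.28. It stayed under 0.5 for 25 symbols and reached 0.5 or more for 10, and in 19 symbols the features lay on both sides of 0. The widest spans were those of CELF1 (3.04), SRSF11 (0.86), CELF2 (0.83), CELF4 (0.79) and Sfswap (0.74). The narrowest were those of HNRNPH1, DHX15, SRSF2 and HNRNPL, at 0.053 or less. Such features can be fragments or isoforms of one transcript, or paralogs of a duplicated gene, which the table does not separate. The span between features of different symbols was not computed for comparison.

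**Figure D4:**
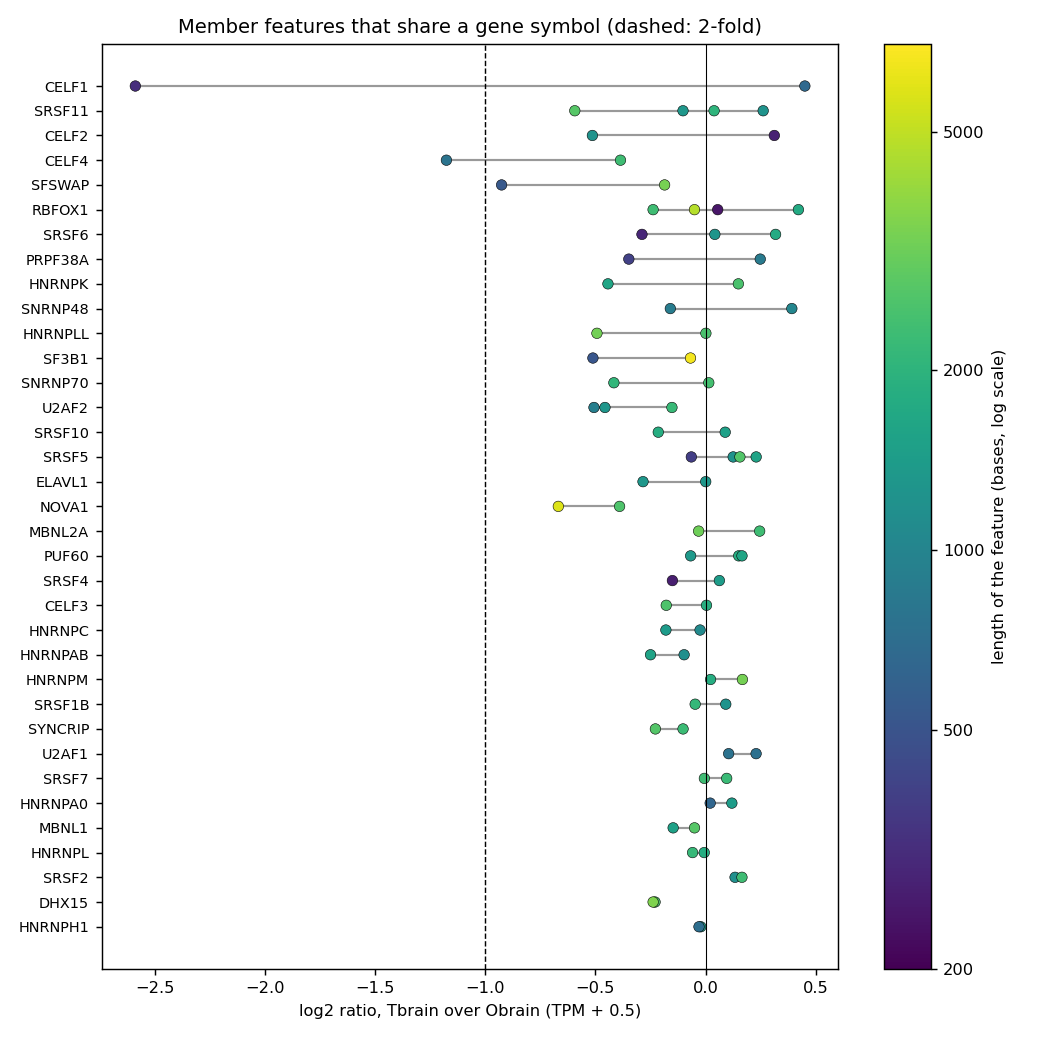
Log2 ratio of Tbrain over Obrain (horizontal axis, on TPM + 0.5) for member features that share a symbol, 1 line per symbol, coloured by feature length in bases on a log scale and ordered by span. CELF1 spans 3.04, the median span is 0.28, and 19 of the 35 symbols have features on both sides of 0. All features of NOVA1, CELF4, SFSWAP and U2AF2, among others, lie below 0, and all of HNRNPM, U2AF1, HNRNPA0 and SRSF2 lie above 0.

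The members share annotation that the rule did not use. The KEGG spliceosome pathway is assigned to 80 of the 147, or 54.4%, against 0.893% of the 18927 features with a protein match. An RNA recognition motif is the listed Pfam domain of 71 members (48.3%, against 0.94%), among them all 5 ELAV-like, 9 of 10 CELF, 20 of 27 hnRNP and 19 of 25 SR protein features. The Sm domain is listed for 6 members, all in the snRNP class, and a KH domain for 4, namely both Nova features and 2 hnRNPs. The best protein match came from another cichlid for 88 members, from other fish for 55 and from a mammal, reptile or frog for 4.

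Related genes outside the rule also lay near equality. The 90 features that KEGG assigns to the spliceosome and that are no members had a median log2 ratio of 0.05 (interval 0.01 to 0.07). The members in the same pathway had a median of 0.00 (interval -0.07 to 0.09), and the 2 intervals, which are no test, overlap. Of the 90, 1 was at least 2-fold higher in Tbrain and 2 at least 2-fold higher in Obrain (1.11% and 2.22%). The first was a feature of 458 bases, from 51 reads in Tbrain and 8 reads in Obrain. The others, of 303 and 391 bases, held 10 and 20 reads in Tbrain and 27 and 53 reads in Obrain. Over all features the shares were 5.02% and 10.1%, and over those of at least 1000 bases 0.373% and 1.01%. Under 500 bases, the length of these short features, they were 8.15% and 16.2%. Of 76 listed RNA-processing genes 12 are members and 56 others were measured, each given by its feature with the highest mean TPM. Their median was -0.02 (interval -0.06 to 0.06). This list was not kept apart from the 90 KEGG features, so the 2 sets can overlap. Over all features of at least 1000 bases 10578 of 10726 lay within 2-fold, and of the 56 genes 55 did.

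The exception was RBM38, an RNA-binding protein that regulates messenger RNA stability and splicing. It measured 15.3 TPM in Tbrain and 5.21 TPM in Obrain on 1061 bases, a log2 ratio of 1.47 and a plain ratio of 2.93 (2.46 to 3.52) from 463 and 171 reads. Its relative RBM24 measured 9.73 TPM in Tbrain and 5.96 TPM in Obrain on 467 bases (0.66). The lowest ratios on long features were those of MSI1, a marker of neural progenitors and glia, at 29.1 TPM in Tbrain and 44.0 TPM in Obrain (-0.59), and of FMR1, the fragile X protein gene, at 4.97 TPM in Tbrain and 7.66 TPM in Obrain (-0.58). PTBP2, the neuronal polypyrimidine tract binding protein, measured 14.9 TPM in Tbrain and 15.2 TPM in Obrain. SRRM4, which promotes the inclusion of neuronal microexons in mammals, measured 12.9 TPM in Tbrain and 13.7 TPM in Obrain.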

How the data were processed

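Brain poly(A) RNA of 2 fish was sequenced as 1 library each. Salmon, edgeR, cutadapt and FastQC are listed in the submitters' processing notes, with no version or role, and no genome is given. The values deposited by the authors are TPM, and the feature lengths are those in the table. The library kit named in the labels does not mark strand, so antisense transcripts cannot be told apart.

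Members, classes and gene lists were chosen with earlier results of these data known. The minimum of 1 TPM in the higher library removed nothing. At a given feature length the TPM values fell on multiples of a step, taken as 1 read; 95.1% of 15968 Tbrain and 95.4% of 13679 Obrain values under 30 reads lay within 0.1 of a whole number, against 20% by chance. Steps were measured from 201 to 560 bases and continued along a straight line fitted from 450 bases, so reads of longer features are extrapolated. Reads cover counting error only, and duplicates would make intervals too narrow.

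Named were all neuronal and tissue-specific features of at least 500 bases; in other classes, from that length and 1 TPM in the lower library, the 2 most abundant and the 2 largest ratios per direction; all members past 2-fold on such features; and shorter ones past 2-fold, up to 3 per direction. Other features in the text were chosen after their values were seen. Alternatives were the pseudocount, level, length, symbol, centring, zero and threshold settings below. SciPy 1.17.1, Matplotlib 3.10.9, pandas 2.3.3 and NumPy 2.4.6 were used under Python 3.11.15, and the procedures were tested on simulated data.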

Additional observations from a re-analysis of the deposited data

How the results depend on the processing

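No member reached the threshold towards Tbrain under any of the 9 alternatives, 1.5-fold included. The count towards Obrain, 4 as reported, was 2 at a mean of at least 10 TPM, 2 among features of at least 500 bases, 1 among those of at least 1000 bases (ELAVL3), 2 with 1 feature per symbol and 9 at 1.5-fold; it was 3 after centring, where ELAVL3, at -0.94, was no longer among them and no member of at least 1000 bases was past 2-fold. It was 4 with a pseudocount of 0.1 or 1 TPM and without features at 0. The median over all members stayed between -0.05 and 0.042 and changed sign only after centring on the median of all features (0.042), as did those of the hnRNPs (0.044), SF3A and SF3B (0.07) and the other splicing factors (0.006). The SR protein median was 0.12 after centring and -0.11 with 1 feature per symbol, against 0.04 as reported. Class medians also changed sign for CELF (0.004 at a mean of at least 10 TPM, 0.03 with 1 feature per symbol), U2AF (0.10 and 0.04 there), RBFOX (-0.02 from 500 and -0.05 from 1000 bases) and snRNPs (-0.07 from 1000 bases), while ELAV-like, muscleblind and Nova medians stayed negative. Of 96 medians over members or classes under alternatives, 92 stayed within the interval of the reported one. For the ELAV-like, RBFOX, muscleblind, Nova and U2AF classes that interval is the whole range of the features. The median of any subset of such a class lies inside it by construction. Of 410 values of 58 named features, 396 stayed within their counting interval and the 14 others were centred ones. None past 2-fold changed sign. Only the pseudocount and centring settings can move the ratio of a single feature. Its values under the level, length, symbol and zero settings are unchanged by construction and show no stability. No paired analysis was possible because each group has a single library, and none could be left out. Depth limits the short features: the celf1 difference rests on 4 reads in Tbrain.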
